A study of Mus musculus with 24 samples.

Results

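Bcl6 and 9 other transcription factors that set the course of a germinal centre B cell were followed across lymphomas that arose in mice with and without T cells. They are Bcl6, Bach2, Pax5, Irf4, Irf8, Prdm1, Xbp1, Mef2b, Mef2c and Spib, taken by name from the deposited count table, and all 10 had a row among its 11140 genes and passed the filter on low counts. B lymphoma cells were purified from the spleens of C57BL/6 mice and their RNA was sequenced. T cell deficient lymphomas, 11 in number, came from Bcl6Tg/+CD3Epsilon-/- mice, and 12 T cell sufficient lymphomas came from Bcl6Tg/+ mice. Both groups therefore carried the Bcl6 transgene, and the groups differed in the loss of Cd3e, which encodes the epsilon chain of the CD3 signalling complex of T cells. The sources used here do not give the promoter that drives the transgene, the ages of the mice or the markers used for purification. Run 1 held 5 deficient and 7 sufficient libraries and run 2 held 6 and 5. The study's title asks how CD4 T cells hold lymphoma-prone B cells in check.

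Germinal centres are the sites in lymph nodes and spleen where B cells divide, mutate their antibody genes and are selected. BCL6 is the repressor that holds a B cell in this state, with PAX5, SPIB, IRF8 and BACH2 maintaining B cell identity and MEF2B and MEF2C acting as activators. Exit to the antibody-secreting plasma cell runs through IRF4 and the repressor BLIMP-1, encoded by Prdm1, and then XBP1, which builds the secretory apparatus. BCL6 and BLIMP-1 are known to repress each other's programmes.

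The promoters of Bcl6 and Prdm1 are shown because these genes stand at the ends of that switch. The lines give the 250 bases before the annotated start from RefSeq (GRCm38.p6), 5′ to 3′ on the gene's own strand, which is the minus strand for both. Bcl6 has 2 annotated starts. Capitals mark TTCNNNGAA, a core that BCL6 and STAT sites share, in the Bcl6 windows, and TGANTCA, the AP-1 element, in the Prdm1 window. The windows lie at chr16:23988853-23989102, chr16:23981284-23981533 and chr10:44458749-44458998.
Bcl6, upstream start: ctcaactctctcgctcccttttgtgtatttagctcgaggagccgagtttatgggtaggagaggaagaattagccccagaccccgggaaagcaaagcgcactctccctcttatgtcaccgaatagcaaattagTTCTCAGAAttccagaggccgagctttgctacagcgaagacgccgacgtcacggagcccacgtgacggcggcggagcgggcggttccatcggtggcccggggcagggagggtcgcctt
Bcl6, downstream start: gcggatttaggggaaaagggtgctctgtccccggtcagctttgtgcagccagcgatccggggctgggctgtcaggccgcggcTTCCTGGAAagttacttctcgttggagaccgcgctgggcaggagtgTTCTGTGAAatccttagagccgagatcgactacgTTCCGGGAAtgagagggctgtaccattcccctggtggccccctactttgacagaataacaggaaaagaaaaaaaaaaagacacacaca
Prdm1: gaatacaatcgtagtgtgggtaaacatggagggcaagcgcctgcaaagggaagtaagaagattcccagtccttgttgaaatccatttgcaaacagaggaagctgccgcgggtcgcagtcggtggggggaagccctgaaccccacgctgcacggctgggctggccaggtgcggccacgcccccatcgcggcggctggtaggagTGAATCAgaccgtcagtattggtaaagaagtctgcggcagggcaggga
The downstream Bcl6 window held TTCNNNGAA 3 times and the upstream window once. Windows of the 250 bases before a start were searched on both strands, 14 of them for the 10 factors. TTCNNNGAA stood in 5 of these 14, belonging to Bach2, Bcl6, Irf8 and Mef2c, against 7.02% of all 32851 windows in the table, and TGANTCA stood in 2 of the 14, belonging to Mef2c and Prdm1, against 6.75%. The other motifs searched, the ETS and IRF composite, the interferon response element, the unfolded protein response core CCACG and the MEF2 element, stood in 2, 0, 4 and 1 of the 14 windows, against 2.30%, 2.98%, 28.3% and 3.20% of all windows. A match of letters does not show that a factor binds there.

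Total counts over the listed genes ran from 11778681 to 28067820 in deficient and from 7576034 to 30607005 in sufficient libraries, so each factor was measured with at least 30 counts in every library. Cd3e transcripts were counted in both groups (0.721 to 5.77 CPM, the usual per-library count scale, here with library sizes adjusted by TMM, in deficient and 0 to 2.47 CPM in sufficient libraries), and since the sources used here do not give the deleted part of the gene, they do not check the genotype. The 10 B cell markers were all expressed, with a summed level of 3585 to 8925 CPM in deficient and 6060 to 13020 CPM in sufficient libraries. In 12 of the 23 libraries Xist and Y-linked transcripts were both above 1 CPM, and in 3 of them, T cell sufficient lymphomas 9, 10 and 11, both were above 10 CPM, although each library is labelled as 1 animal. Several results are given with and without those libraries. Correlations with Bcl6 were recomputed without the 3 but not without the 12, and those among the other factors were recomputed without neither set. Runs differed in 36.3% of all tested genes, and among the 10 factors in Pax5, which was higher in run 2 (log2 fold change of run 2 over run 1 0.71 ± 0.18 SE, edgeR adjusted p = 0.00360).

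Of the 10 factors, Mef2b differed between the groups, and the other 9 did not pass the test. A gene counts as passing at a Benjamini-Hochberg adjusted p under 0.05 in edgeR's quasi-likelihood test with terms for run and group, which 22.2% of the 11020 tested genes did, 10.6% of them higher and 11.7% lower in the deficient group. The groups overlapped for all 10 factors, and the share of all genes for which they did was not computed.

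**Figure D1:**
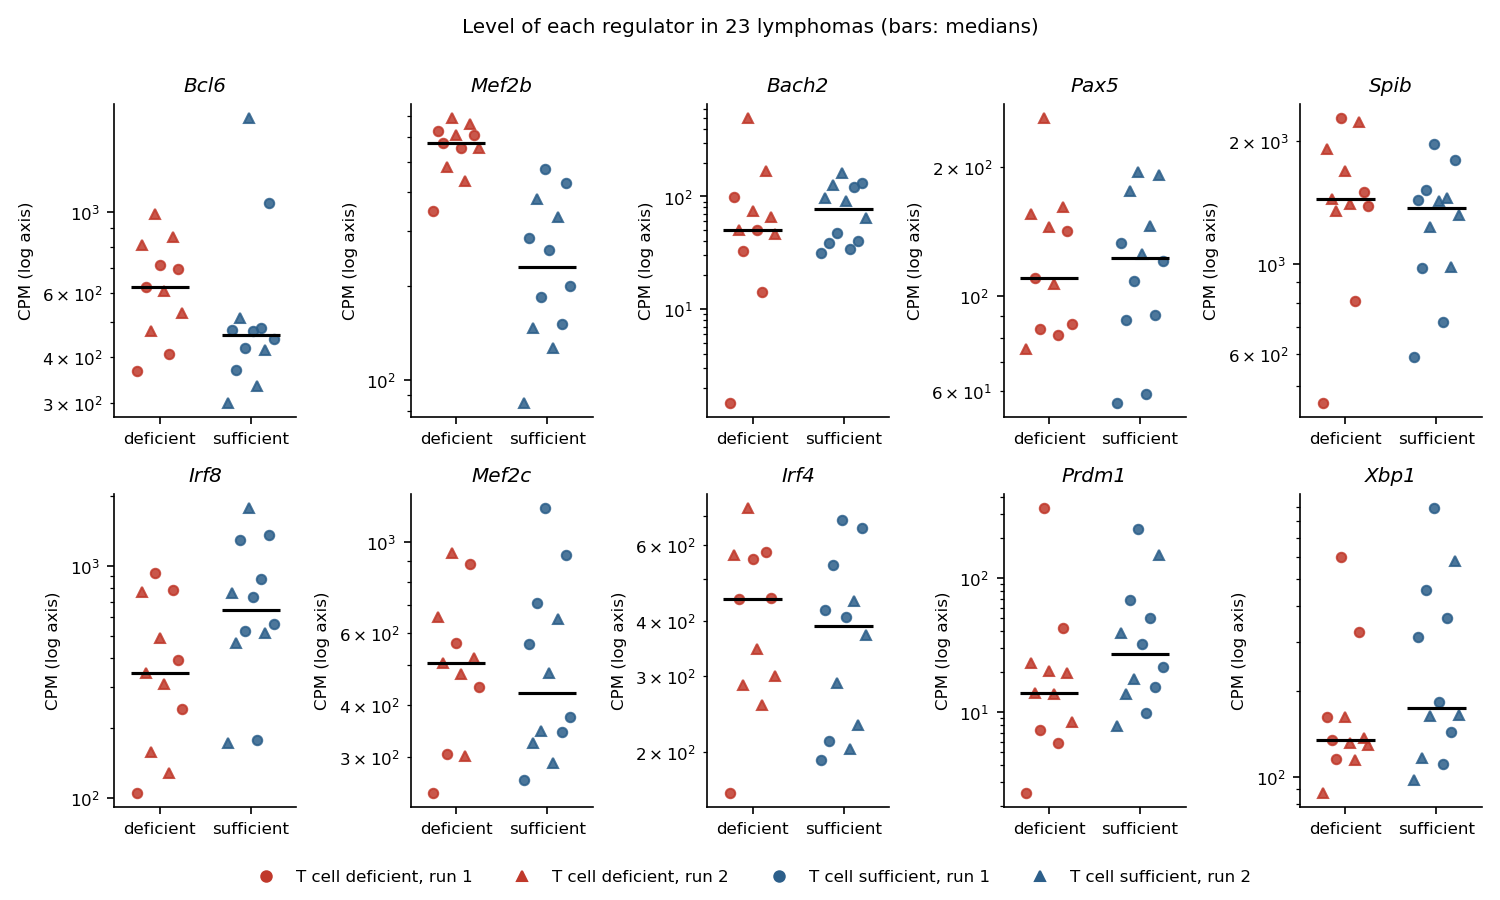
Level of each of the 10 factors in each lymphoma, in CPM on a log axis, T cell deficient left and T cell sufficient right; circles are run 1, triangles run 2 and bars group medians. Mef2b is the factor whose groups stand farthest apart, with medians of 576 and 231 CPM, while Prdm1, Xbp1 and Bach2 each have a few lymphomas far from the rest.

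Bcl6, on chromosome 16 at 23965052 to 23988852 (GRCm38, GENCODE M21, minus strand), was abundant in every lymphoma. Its lowest, median and highest levels were 366, 622 and 983 CPM in deficient lymphomas and 299.8, 461 and 1799 CPM in sufficient ones. Sufficient lymphomas 11, at 1799 CPM, and 4, at 1056 CPM, stood above every deficient lymphoma, and the other 10 sufficient lymphomas lay below the deficient median. The log2 fold change of deficient over sufficient was 0.07 ± 0.27 (SE; 95% interval -0.45 to 0.59; edgeR adjusted p = 0.864). Without sufficient lymphoma 11 it was 0.43 ± 0.21 (SE, edgeR adjusted p = 0.153), and without sufficient lymphomas 9, 10 and 11 it was 0.42 ± 0.25 (edgeR adjusted p = 0.272). It was 0.59 ± 0.32 without the 12 libraries with Xist and Y-linked transcripts above 1 CPM (edgeR adjusted p = 0.356) and 0.20 ± 0.25 without sufficient 4 (edgeR adjusted p = 0.581). The counts do not separate transcripts of the transgene from those of the mouse's own gene.

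Mef2b encodes a MADS-box factor that in human germinal centre B cells activates transcription of BCL6, and lies on chromosome 8 at 70139711 to 70167488 (plus strand). Its lowest, median and highest levels were 347, 576 and 690 CPM in deficient lymphomas and 84.5, 231 and 473 CPM in sufficient ones. All 11 deficient lymphomas lay above the sufficient median, 9 of them above every sufficient lymphoma, and 9 of the 12 sufficient lymphomas lay below every deficient one. Mef2b was 2.25-fold higher in deficient lymphomas (log2 fold change 1.17 ± 0.24 SE, 95% interval 0.70 to 1.64, edgeR adjusted p = 0.00209). In bulk RNA, a higher share of cells that express a gene and more RNA per cell cannot be told apart. The authors' deposited table gives a log2 fold change of 1.32 with an adjusted p of 0.000896 for Mef2b, and no other of the 10 factors has an adjusted p under 0.05 in it.

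The size of the Mef2b difference was 0.94 ± 0.28 (SE) on the log2 scale in run 1 alone, where 0 genes passed edgeR's test (0.0%; 1832 had an unadjusted p under 0.05; Mef2b adjusted p = 0.156), and 1.42 ± 0.37 in run 2 alone, where 12.3% passed (Mef2b adjusted p = 0.0320). The difference between runs did not pass (interaction 0.48 ± 0.47 SE, edgeR adjusted p = 0.860), as for every gene tested by edgeR (0.0%; 723 had an unadjusted p under 0.05). Leaving out any 1 lymphoma gave log2 fold changes of 1.06 to 1.30 for Mef2b, each past the test. Without the 3 libraries with both Xist and Y-linked transcripts above 10 CPM it was 1.11 ± 0.26 (edgeR adjusted p = 0.0108), and without all 12 such libraries above 1 CPM it was 1.2 ± 0.22 (edgeR adjusted p = 0.0246). The B cell marker sum, by contrast, was lower in the deficient group, where 6 of its 10 markers passed the test downwards and 1 upwards. Of all genes 11.7% passed downwards and 10.6% upwards. The part of marker levels in the Mef2b difference was not tested.

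Mef2b was also even within the deficient group. The SD of its log2 CPM was 0.29 over the 11 deficient lymphomas, and 28.8% of tested genes had a smaller one, whereas in the 12 sufficient lymphomas it was 0.77 and 74.2% of genes had a smaller one. Exons of Mef2b overlap those of the neighbouring gene Borcs8 on the same strand, which has no row under that symbol in the table. The row 2310045N01Rik, an older symbol of Borcs8, had 33.2 ± 8.17 CPM in deficient and 35.8 ± 5.96 CPM in sufficient lymphomas (SD, n = 11 and 12; log2 fold change -0.08 ± 0.12 SE, edgeR adjusted p = 0.651).

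Mef2c, the relative of Mef2b that supports B cell survival and proliferation after antigen receptor signals, lies on chromosome 13 at 83504034 to 83667080. Its lowest, median and highest levels were 244, 508 and 941 CPM in deficient and 262, 427.5 and 1207 CPM in sufficient lymphomas, with the groups almost wholly overlapping (log2 fold change 0.03 ± 0.28 SE, edgeR adjusted p = 0.954). Among 9 other MEF2 family members and partners, 0 passed edgeR's test in either direction. An unadjusted p under 0.05, which 36.1% of all tested genes had, was found for 2 of them: Mef2a, at a log2 fold change of 0.40 (edgeR adjusted p = 0.0667), and Hdac4, which encodes a histone deacetylase that MEF2 factors recruit, at -0.74 (edgeR adjusted p = 0.0752).

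**Figure D2:**
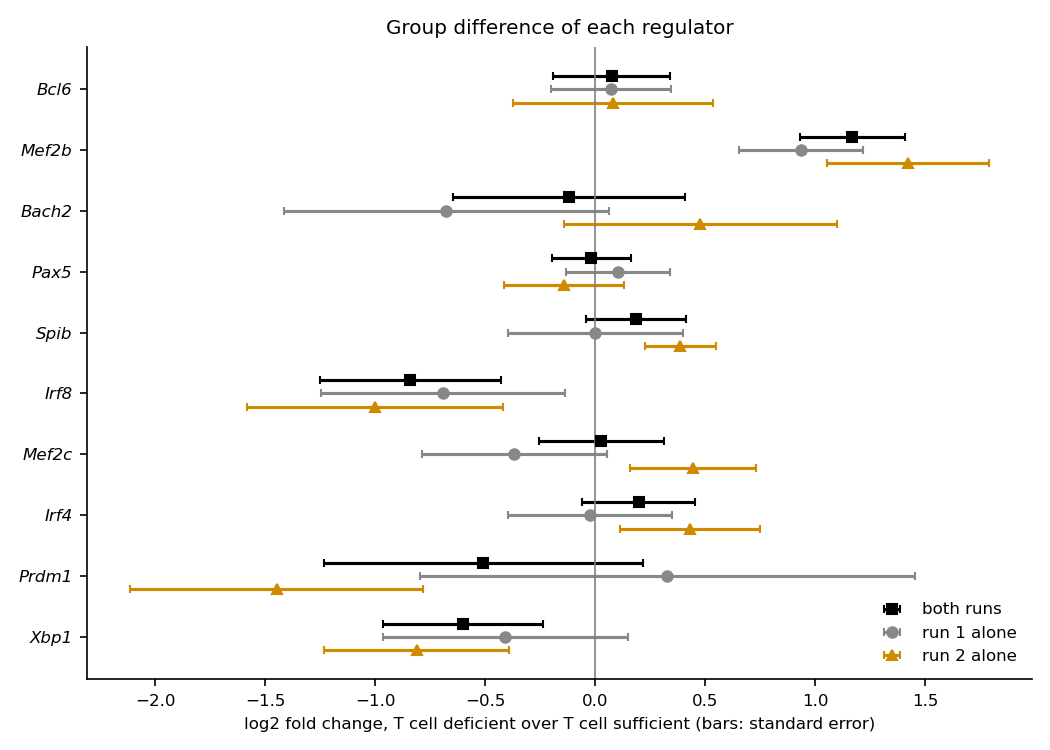
Log2 fold change of T cell deficient over T cell sufficient lymphomas for each factor, with standard error bars, from both runs together (black), run 1 alone (grey) and run 2 alone (orange). Mef2b lies above 0 in all 3 estimates at 0.94 to 1.42, whereas Prdm1 lies at 0.33 in run 1 and -1.45 in run 2 with wide errors.

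The factors of B cell identity did not differ between the groups beyond their spread. Pax5, the factor that commits cells to the B lineage (chromosome 4, 44524757 to 44710487), had lowest, median and highest levels of 75.0, 110.2 and 260.4 CPM in deficient and 56.2, 123 and 195 CPM in sufficient lymphomas. The log2 fold change of Pax5 was -0.02 ± 0.18 (SE; 95% interval -0.37 to 0.34; edgeR adjusted p = 0.957). Reads of Pax5 could not be told apart from those of an opposite-strand gene, 5730488B01Rik, which the table lists at up to 36.8 CPM, because the sources used here do not give the strand setting.

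Spib encodes an ETS factor that sustains antigen receptor signalling and restrains plasma cell formation (chromosome 7, 44525993 to 44532071). It had 455, 1435 and 2268 CPM as lowest, median and highest in deficient and 592, 1369 and 1960 CPM in sufficient lymphomas (log2 fold change 0.18 ± 0.23 SE, edgeR adjusted p = 0.585). The lowest lymphoma of each group, deficient 9 and sufficient 4, were also the 2 with the highest Prdm1 of all.

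Bach2, a repressor that delays plasma cell differentiation (chromosome 4, 32238804 to 32586108), ranged more widely than any other of the 10 factors in deficient lymphomas. Its lowest, median and highest levels were 1.46, 50.3 and 495 CPM in deficient and 31.4, 77.5 and 162 CPM in sufficient lymphomas. Both ends of the range were deficient lymphomas: number 9 had 40 Bach2 counts in all, and number 6 had the highest Bach2, the highest Pax5 (260.4 CPM) and the lowest Xbp1 (87.3 CPM) of the group. The SD of log2 CPM of Bach2 in the deficient group, 2.10, was larger than that of 97.8% of tested genes, and the group difference was -0.12 ± 0.53 (log2 fold change, SE; edgeR adjusted p = 0.894).

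Irf8, a factor of germinal centre B cells and of myeloid cells (chromosome 8, 120736358 to 120756694), had 105, 344 and 930 CPM as lowest, median and highest in deficient and 173, 648 and 1768 CPM in sufficient lymphomas. In 3 deficient lymphomas it was below every sufficient one, and in 3 sufficient lymphomas it was above every deficient one. Its log2 fold change of -0.84 ± 0.41 (SE) did not pass (unadjusted p = 0.0535, edgeR adjusted p = 0.145). The highest Irf8 was in sufficient lymphoma 11, the library with the highest monocyte and macrophage marker sum (3332 CPM, against at most 1116 CPM in every other library), and without the 3 libraries named above the Irf8 value was -0.59 (edgeR adjusted p = 0.379), and without sufficient 11 alone it was -0.55. The part of those markers in the Irf8 level was not tested.

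The 3 factors of plasma cell exit did not pass the test between groups either. Irf4, which drives exit at high levels (chromosome 13, 30749226 to 30766976), had lowest, median and highest levels of 161, 451 and 728 CPM in deficient and 192, 390.5 and 684 CPM in sufficient lymphomas (log2 fold change 0.20 ± 0.26 SE, edgeR adjusted p = 0.606). Prdm1 (chromosome 10, 44437177 to 44528501) was the least abundant and among the most uneven, at 2.48, 13.8 and 331 CPM in deficient and 7.90, 26.9 and 230 CPM in sufficient lymphomas. A single deficient lymphoma, number 9, held the highest Prdm1 of all, while 3 other deficient lymphomas lay below every sufficient one.

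The Prdm1 log2 fold change depended on that library. It was -0.51 ± 0.72 (SE, edgeR adjusted p = 0.643) with all lymphomas and -1.74 ± 0.62 (edgeR adjusted p = 0.0487) without deficient lymphoma 9. Without sufficient lymphomas 9, 10 and 11 it was 0.35 (edgeR adjusted p = 0.795), without sufficient 11 alone 0.080 and without sufficient 4 alone -0.11, and without the 12 libraries with Xist and Y-linked transcripts above 1 CPM it was -2.20 ± 0.80 (unadjusted p = 0.0204, edgeR adjusted p = 0.176). Xbp1 (chromosome 11, 5520659 to 5525893) had 87.3, 135 and 598 CPM as lowest, median and highest in deficient and 97.4, 174.5 and 890 CPM in sufficient lymphomas (log2 fold change -0.60 ± 0.36 SE, edgeR adjusted p = 0.241), again with groups that overlapped. The Xbp1 value was -0.26 without sufficient 11, -0.40 without sufficient 4, -0.28 without sufficient 9, 10 and 11, and -0.83 without the 12 libraries (edgeR adjusted p = 0.217).

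Compared per length of annotated exon, Spib and Mef2b transcripts were the most abundant. In deficient lymphomas Spib averaged 519.9 ± 189 and Mef2b 398 ± 72.7 CPM per kb (SD, n = 11), a pair that did not differ beyond the spread of their ratio, and Mef2b exceeded the next factor, Bcl6 at 95.8 ± 28.7 CPM per kb, in all 11. In sufficient lymphomas Spib averaged 446.6 ± 142 and Mef2b 181.5 ± 90.1 CPM per kb (SD, n = 12), and Spib was above Mef2b in all 12. Bcl6, Irf4, Irf8 and Xbp1 formed a middle group whose neighbours in the order did not differ beyond the spread of their ratios in either group, and neither did Mef2b and its neighbour Irf8 in sufficient lymphomas. Mef2c came next, beyond that spread from Irf4 in sufficient but not from Xbp1 in deficient lymphomas, and above Pax5 beyond the spread in both. Bach2 and Prdm1 were lowest by mean, and neighbours in the order from Pax5 down did not differ beyond the spread (10.05 ± 13.9 and 7.94 ± 17.1 CPM per kb in deficient, 8.28 ± 4.57 and 9.76 ± 12.1 CPM per kb in sufficient lymphomas).

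Each factor was then related to the Bcl6 level of the same lymphoma. In a fit over all 11019 other genes with the log2 Bcl6 level beside group and run, 0 of the 9 factors passed, where 0.672% of genes did. By an unadjusted p under 0.05, 3 of the 9 had a slope, against 15.2% of genes. The 3 were the plasma cell factors, and all had positive slopes. Per doubling of Bcl6 the log2 level of Prdm1 was higher by 1.5 ± 0.44 (SE, edgeR adjusted p = 0.110), that of Xbp1 by 0.83 ± 0.21 (adjusted p = 0.0731) and that of Irf4 by 0.55 ± 0.19 (adjusted p = 0.159). DESeq2 called Prdm1 (adjusted p = 0.0424) and Xbp1 (adjusted p = 0.0271), where it called 3.73% of all genes, and limma-voom called 0 of the 9, where it called 1.65%. For Mef2b, the factor that differed between groups, the slope was -0.12 ± 0.22 (SE, 95% interval -0.56 to 0.32, edgeR adjusted p = 0.849).

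**Figure D3:**
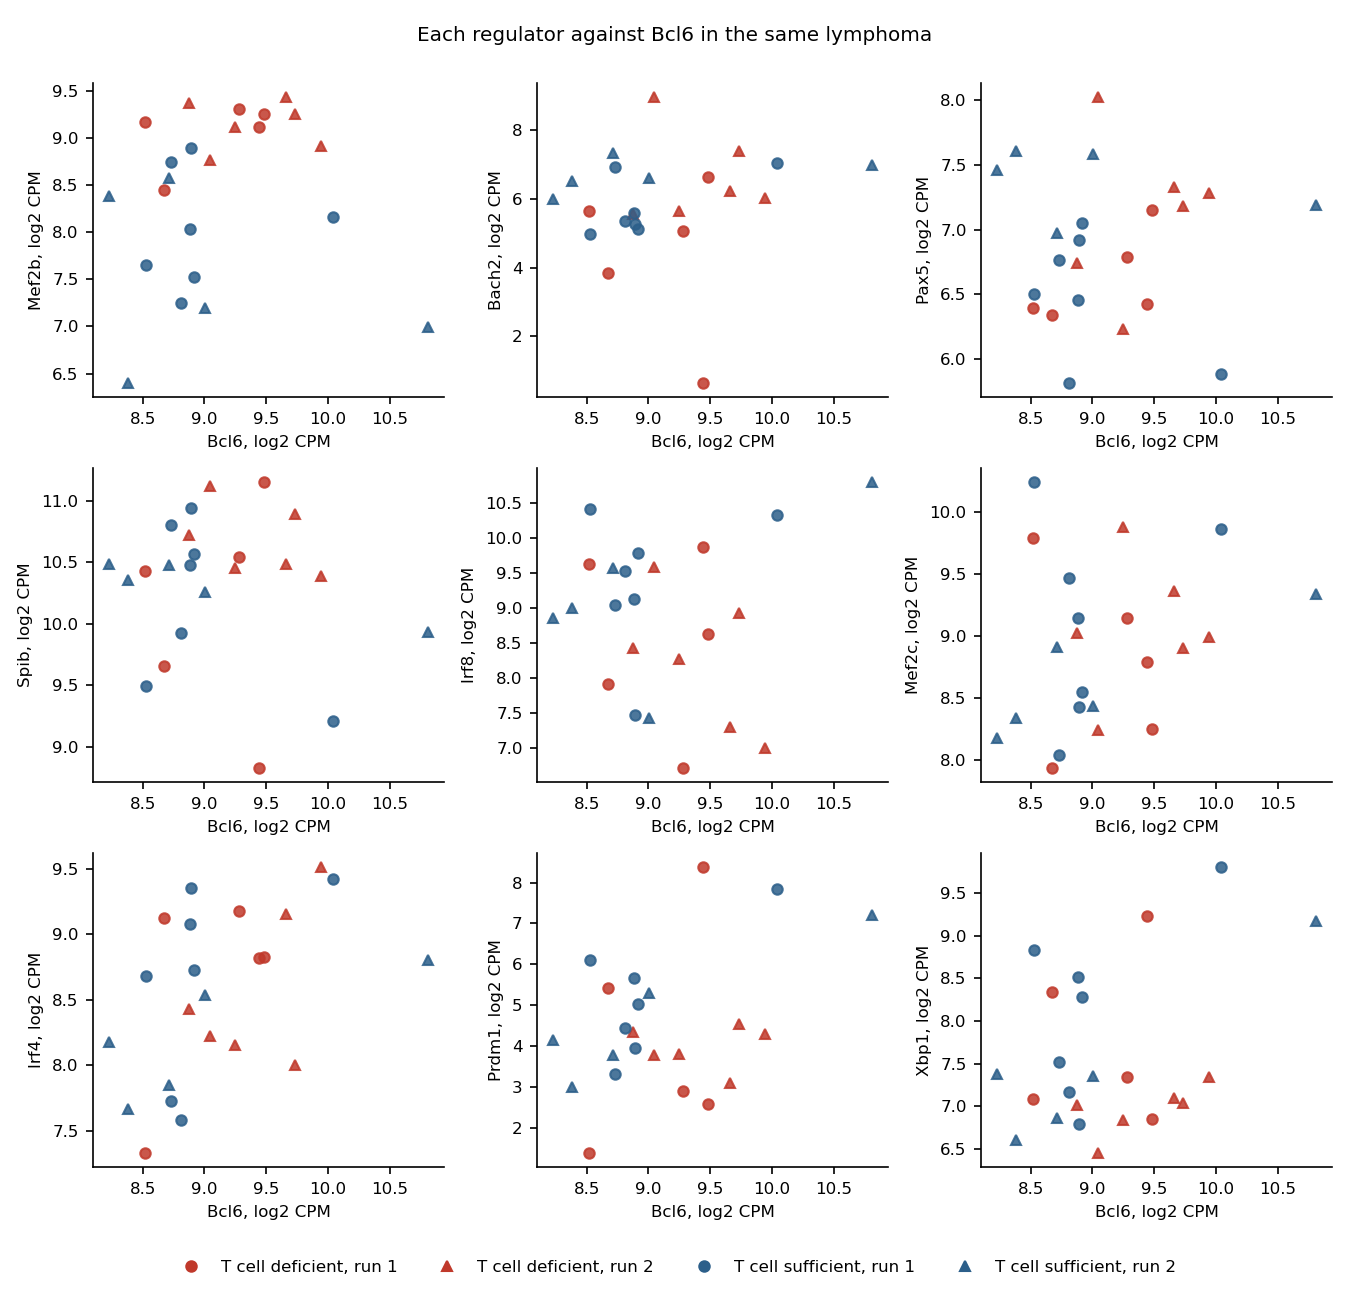
Log2 CPM of each of the other 9 factors (vertical) against log2 CPM of Bcl6 (horizontal) in the same lymphoma; red is T cell deficient, blue T cell sufficient, circles run 1 and triangles run 2. The 2 blue points farthest right, sufficient lymphomas 11 and 4, are high in Prdm1 and Xbp1, and the remaining points show no rise of either with Bcl6 past the test.

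The relation of Prdm1 and Xbp1 to Bcl6 rested on those 2 lymphomas. With group and run means subtracted, over 23 lymphomas, Pearson's r with Bcl6 was 0.54 for Prdm1 (permutation p = 0.0109; Spearman's rho 0.37, p = 0.110) and 0.60 for Xbp1 (permutation p = 0.0112; rho 0.37, p = 0.0945). Without sufficient lymphomas 11 and 4, which lie farthest from the median Bcl6 level, r was 0.23 (permutation p = 0.486) for Prdm1 and 0.12 (permutation p = 0.658) for Xbp1. Without sufficient lymphomas 9, 10 and 11, r was 0.39 (permutation p = 0.138) for Prdm1 and 0.41 (permutation p = 0.123) for Xbp1. Within runs r was 0.47 (permutation p = 0.128) in run 1 and 0.80 (permutation p = 0.0387) in run 2 for Prdm1, and 0.42 (permutation p = 0.193) and 0.89 (permutation p = 0.0162) for Xbp1. Of the whole fit, 0 genes passed by edgeR without sufficient lymphoma 11 (922 at an unadjusted p under 0.05) and 9 genes without sufficient lymphoma 4, against 74 with both. In single runs 0 of the 9 factors passed, where 0.0% of genes did in run 1 (514 at an unadjusted p under 0.05) and 0.109% in run 2.

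For Irf4 the relation over both groups did not rest on those 2 lymphomas. In the deficient group alone, r was -0.09 without that group's 2 lymphomas farthest from its median Bcl6. Its r with Bcl6 was 0.53 (permutation p = 0.00374; rho 0.61, p = 0.00258) over 23 lymphomas and 0.48 (permutation p = 0.0384; rho 0.49, p = 0.0294) without the 2 farthest. Within runs it was 0.53 in run 1 (permutation p = 0.102, n = 12) and 0.60 in run 2 (permutation p = 0.0258, n = 11), and without sufficient lymphomas 9, 10 and 11 it was 0.53 (permutation p = 0.0333). These are 9 relations computed in the same family, of which 3 had a permutation p under 0.05, and the p-values are not adjusted over them. The share of all genes under this permutation test was not computed. The monocyte and macrophage marker sum moved in the same way, with residual r of 0.48 with Bcl6 and 0.53 with Irf4, and its part in the relation was not tested.

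The relations to Bcl6 were then taken within each group, with no run mean subtracted. In deficient lymphomas 0 of 9 had a permutation p under 0.05, and in sufficient ones 2 of 9, Prdm1 and Xbp1. The share of all genes under this test within a group was not computed, so the counts have no background. Irf4 had r = 0.50 (permutation p = 0.119) over the 11 deficient and r = 0.49 (permutation p = 0.104) over the 12 sufficient lymphomas. Prdm1 had r = 0.19 (permutation p = 0.581) over the 11 deficient and r = 0.77 (permutation p = 0.00440) over the 12 sufficient lymphomas, and Xbp1 had -0.02 (permutation p = 0.950) and 0.68 (permutation p = 0.0133). The difference of slope between groups did not pass the test for any of the 9 factors, with unadjusted p from 0.111 for Irf8 to 0.990 for Prdm1, and it passed for 0.0% of all genes by edgeR (561 at an unadjusted p under 0.05). After removal of the 2 sufficient lymphomas farthest from that group's median Bcl6, r in the sufficient group was 0.34 (permutation p = 0.339) for Prdm1, 0.14 (permutation p = 0.702) for Xbp1 and 0.42 (permutation p = 0.221) for Irf4. Over the 9 deficient lymphomas left without that group's 2 farthest, r was -0.09 (permutation p = 0.800) for Irf4. There 1 of the 9 relations had a permutation p under 0.05, that of Mef2b (r = 0.67, permutation p = 0.0456). In the reduced sufficient group 0 did.

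The factors were also compared with each other, and Prdm1 and Xbp1 had the highest r. The 3 lymphomas with the highest Prdm1, deficient 9 (331 CPM) and sufficient 4 and 11 (230 and 148 CPM), were also the 3 with the highest Xbp1 (598, 890 and 577 CPM). All 3 are among the 12 libraries with Xist and Y-linked transcripts above 1 CPM. Over 23 lymphomas with group and run means subtracted, r between Prdm1 and Xbp1 was 0.89 (rho 0.86; permutation p = 2e-05 for both). Without deficient 9 and sufficient 4, the libraries farthest from the median Prdm1, r was 0.85 (permutation p = 0.000280; rho 0.77), and it was 0.90 in run 1 (permutation p = 0.000160) and 0.88 in run 2 (permutation p = 0.0128).

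Spib ran the other way, with r of -0.79 with Prdm1 (permutation p = 0.000370; rho -0.73, p = 0.00101) and -0.78 with Xbp1 (permutation p = 0.000130; rho -0.67, p = 0.00435). The lowest Spib levels of all, 455 and 592 CPM, were in deficient 9 and sufficient 4. Without those 2 lymphomas r with Prdm1 was -0.57 (permutation p = 0.0166; rho -0.43, p = 0.0702), and within runs it was -0.87 in run 1 (permutation p = 0.00107) and -0.41 in run 2 (permutation p = 0.181). For Xbp1 r with Spib was -0.62 (permutation p = 0.00471) without those 2, and -0.83 in run 1 (permutation p = 0.00149) and -0.66 in run 2 (permutation p = 0.0134).

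Among the identity factors, Pax5 and Spib were high in the same lymphomas (r = 0.57, permutation p = 0.00371; rho 0.65), also without the 2 libraries farthest in Pax5 (r = 0.56, permutation p = 0.00947), with r of 0.71 in run 1 (permutation p = 0.0115) and 0.46 in run 2 (permutation p = 0.222). Pax5 and Mef2c ran opposite (r = -0.62, permutation p = 0.00355; rho -0.65), also without those 2 libraries (r = -0.56, permutation p = 0.0142), with r of -0.54 in run 1 (permutation p = 0.0982) and -0.80 in run 2 (permutation p = 0.00965). Bach2 and Spib had r = 0.59 (permutation p = 0.0225; rho 0.47), which became 0.25 (permutation p = 0.378) without deficient lymphomas 9 and 6, so that this relation rested on them (r of 0.61 in each run, permutation p = 0.0681 in run 1 and 0.0744 in run 2). Of the 45 pairs among the 10 factors, 11 had a permutation p under 0.05, not adjusted over the pairs. The share of pairs of all genes under this permutation test was not computed, so the count has no background. No pair with Mef2b was among the 11. The B cell marker sum had a residual r of 0.69 with Pax5, 0.57 with Spib and -0.56 with Xbp1, and its part in these relations was not tested.

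**Figure D4:**
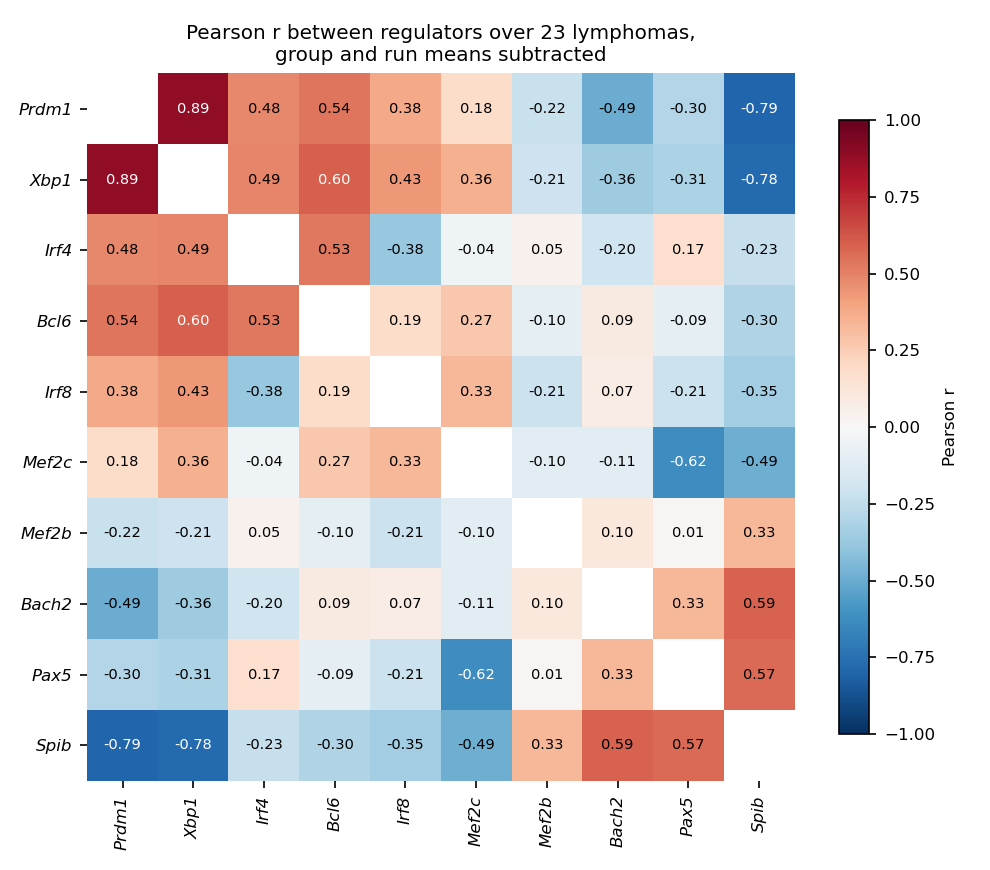
Pearson's r of log2 CPM between each pair of the 10 factors over 23 lymphomas after the mean of each group and run was subtracted, from blue (-1) to red (1). Prdm1 and Xbp1 share the highest value, 0.89, and both are opposite to Spib, at -0.79 and -0.78.

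Because Prdm1 varied so widely, all other genes were also fitted against its level, a step chosen after these values had been seen. Of the 11019 genes 4.87% passed, 2.93% with positive and 1.94% with negative slopes, 537 genes in all. Without deficient 9 it was 293 genes and without sufficient 11 it was 291. Xbp1 was higher by 0.45 ± 0.05 (SE) on the log2 scale per doubling of Prdm1 (edgeR adjusted p = 3.32e-05) and Spib lower by a slope of -0.27 ± 0.06 (edgeR adjusted p = 0.00756), while Bcl6 had a slope of 0.23 ± 0.07 that did not pass (edgeR adjusted p = 0.0538). Without deficient 9 and sufficient 4 the slope of Xbp1 was 0.47 (edgeR adjusted p = 0.00549) and that of Spib -0.18 (edgeR adjusted p = 0.308). Without deficient 9 alone that of Spib was -0.23 (edgeR adjusted p = 0.0842).

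Of 26 plasma cell and XBP1 target genes tested, 17 rose with Prdm1, 0 fell and 9 did not pass, where 2.93% of all genes rose. All 26 slopes were positive, and their median was 0.24 against 0.0030 over all genes. Without deficient 9 and sufficient 4 the number that rose was 3, with 25 positive slopes and a median of 0.25, where 44 of all 11027 genes rose. It was 9 without sufficient 4 alone, where 233 of 10996 genes rose, and 9 without sufficient 11 alone, where 160 of 10978 did. Without sufficient 9, 10 and 11 it was 11, where 133 of 11042 genes rose. In run 1 alone 6 of 27 rose, where 88 of 11063 genes did. In run 2 alone and without the 12 libraries with Xist and Y-linked transcripts above 1 CPM 0 of 26 rose, as did 0 of all genes. Among the 17 were Sdc1, the plasma cell surface proteoglycan CD138 (0.63 ± 0.16 SE per doubling, edgeR adjusted p = 0.0230), Igj, the joining chain of secreted antibody (0.52 ± 0.14), the disulfide isomerase Txndc5 (0.44 ± 0.10) and Hspa5, the chaperone BiP (0.24 ± 0.05). Of the 16 PAX5 targets 2 fell with Prdm1, Spib and Cr2, complement receptor 2 (slope -1.53 ± 0.38). Of the 22 germinal centre genes 1 fell, Cxcr5, the receptor for follicular homing (-0.29 ± 0.07), where 1.94% of all genes fell. In the fit on the Bcl6 level 0.535% of all genes rose. Of the 26 plasma cell genes 2 rose there, Txndc5 and Derl3, a part of the machinery that clears misfolded proteins (0.84 ± 0.19, edgeR adjusted p = 0.0429). There 25 of the 26 slopes were positive and the median was 0.36. Without both sufficient 11 and sufficient 4, the 2 farthest in Bcl6, 13 of the 26 slopes were positive and the median was 0.02. Without sufficient 4 alone or sufficient 11 alone, no gene of any pathway list passed the fit on Bcl6. The B cell marker sum had a residual r of -0.61 with Prdm1 and the T and NK cell sum one of 0.55 (7 of 14 markers tested, 3.06 to 95.3 CPM in deficient and 7.45 to 81.0 CPM in sufficient libraries), and their part in these slopes was not tested. In run 2 alone 0 genes passed edgeR's fit on Prdm1 (1110 at an unadjusted p under 0.05), and 1 gene passed without the 12 libraries with Xist and Y-linked transcripts above 1 CPM.

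**Figure D5:**
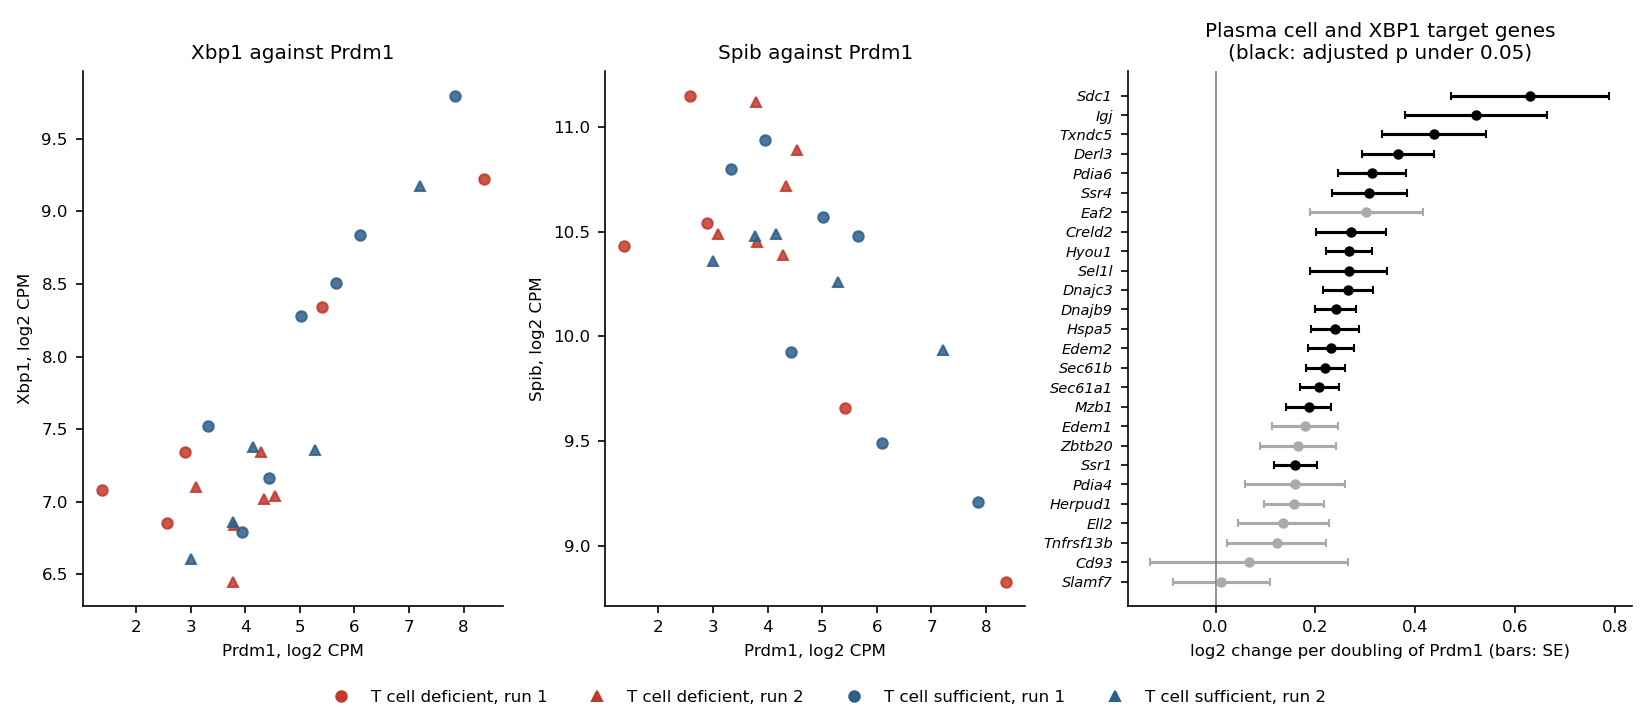
Left and middle, log2 CPM of Xbp1 and of Spib against log2 CPM of Prdm1 in each lymphoma, red T cell deficient and blue T cell sufficient, circles run 1 and triangles run 2. Right, slope of each of 26 plasma cell and XBP1 target genes as log2 change per doubling of Prdm1 with standard error bars, black where the adjusted p is under 0.05; all 26 lie above 0 and 17 are black.

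In the comparison of groups the same plasma cell list showed no rise. In deficient lymphomas 0 of its 26 genes were higher and 4 were lower (Pdia4, Creld2, Txndc5 and Sdc1), with a median log2 fold change of -0.01, equal to that of all genes at -0.01. Pdia4, a disulfide isomerase, averaged 235 ± 152 CPM in deficient and 836 ± 440 CPM in sufficient lymphomas (SD, n = 11 and 12; log2 fold change -1.85 ± 0.34 SE, edgeR adjusted p = 0.00101).

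Of 22 germinal centre B cell genes tested, 11 were higher in deficient lymphomas, 0 were lower and 11 did not pass, where 10.6% of all genes were higher. The log2 fold change was above 0 for 18 of them, with a median of 0.92. In run 1 alone 0 of the 22 passed, as did 0 of all genes, with 16 above 0 and a median of 0.56. In run 2 alone 10 were higher, where 629 of 11051 genes were. Without sufficient lymphomas 9, 10 and 11 the number higher was 8, where 653 of 11043 genes were higher. Without the 12 libraries with Xist and Y-linked transcripts above 1 CPM it was 4, with 21 above 0, where 160 of 11094 genes were higher. Gna13, which encodes the G protein that confines B cells to the germinal centre, averaged 525 ± 151 CPM in deficient and 279 ± 66.4 CPM in sufficient lymphomas (log2 fold change 0.93 ± 0.16 SE, edgeR adjusted p = 0.000681), and 10 of 11 deficient lymphomas were above every sufficient one. Ezh2 belongs to this list and to the next. Others were S1pr2, a confinement receptor (1.64 ± 0.45) and Mybl1 (1.63 ± 0.41). None of the 22 passed in the fit on the Bcl6 level, where 12 slopes were positive.

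Of 22 corepressors and cofactors of BCL6, 5 were higher and 1 lower in deficient lymphomas, a share near the 22.2% of all genes that passed. Ezh2, the methyltransferase of Polycomb that works with BCL6 in germinal centre B cells, averaged 307 ± 64.7 CPM in deficient and 181 ± 55.0 CPM in sufficient lymphomas (log2 fold change 0.84 ± 0.15 SE, edgeR adjusted p = 0.00104). Sirt1, a deacetylase (0.43 ± 0.10), and Kdm1a, a histone demethylase (0.28 ± 0.07), were higher too, and Tbl1xr1, a subunit of the NCoR complex, was lower (-0.54 ± 0.15).

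Genes described as repressed by BCL6 showed no common direction. Of 24 tested, Prdm1 among them, 4 were higher and 5 lower in deficient lymphomas, where 10.6% and 11.7% of all genes were. Gpr183, the receptor EBI2 that leads B cells out of follicles, averaged 5.59 ± 4.41 CPM in deficient and 49.3 ± 25.7 CPM in sufficient lymphomas (log2 fold change -3.15 ± 0.50 SE, edgeR adjusted p = 0.000409), whereas Bcl2l1, which encodes the survival protein BCL-XL, averaged 56.2 ± 24.4 and 18.9 ± 18.4 CPM (1.72 ± 0.40, edgeR adjusted p = 0.00489). In the fit on Bcl6 0 of the 24 passed, 14 had positive slopes, and the median slope was 0.08 against -0.01 over all genes.

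PAX5 targets of the cell surface and signalling were lower in 6 and higher in 0 of 16, where 11.7% and 10.6% of all genes were. This list includes Spib, and Pax5 itself did not pass. Cd55, a complement regulator, averaged 10.6 ± 7.20 CPM in deficient and 59.5 ± 70.9 CPM in sufficient lymphomas (SD, n = 11 and 12; log2 fold change -2.52 ± 0.45 SE, edgeR adjusted p = 0.000950). The counts that follow are to be read against the 22.2% of all genes that passed. Of 20 other B lineage regulators, 1 was higher and 3 lower, among them Bhlhe41 (-2.92 ± 0.60), a repressor best known from B-1 cells. In the ETS family, to which Spib belongs, 1 of 12 was higher and 3 lower, among them Fli1 (-0.91 ± 0.15), and in the rest of the interferon regulatory factor family, to which Irf4 and Irf8 belong, 0 of 6 were higher and 2 lower, Irf1 (-0.98 ± 0.33) and Irf2 (-0.47 ± 0.15). Of 7 partners of BACH2 and members of the MAF family, 1 was lower, Maff (-0.89 ± 0.30). Over all these lists 45 genes passed between groups, and 26 without the 3 libraries with both Xist and Y-linked transcripts above 10 CPM, where 2448 and 1470 of all genes passed.

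The genes whose residual levels were most like Bcl6 over the 23 lymphomas, of 10350 ranked, were Abhd4 (r = 0.84), Hmg20b (0.80) and Zfp768 (0.80), and those most opposite were Ncf4 (-0.84), Cdc40 (-0.81) and Rcn2 (-0.77). For Mef2b they were Rab11fip4 (0.86), Glrx3 (0.85) and Cecr2 (0.85), for Prdm1 Hspa13 (0.91), Hdlbp (0.91) and Cdk5rap3 (0.89), and for Xbp1 Slc33a1 (0.94), Fam46c (0.92) and Slc35b1 (0.92). For Spib they were Trim21 (0.88), Zfp831 (0.88) and Nsf (0.87), for Bach2 Arhgap17 (0.90), for Pax5 Ssh2 (0.90), for Mef2c Zfand5 (0.91), for Irf4 Sh3bp5l (0.80) and for Irf8 Plbd2 (0.83). These are the extremes of a ranking, given as a description with no test.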

How the data were processed

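Raw counts per gene were deposited by the authors for 23 libraries. The CPM they deposited beside them equal the count over the column total within 0.0005, and each listed gene exceeds 1 CPM in at least 7 libraries. The authors' deposited table of their own comparison gives log2 fold changes with p-values, and these were read unchanged. Per the submitters' processing notes, mm10, GRCm38 and limma were used; the sources used here name no aligner, counter or strand setting. The 24th sample, a repeat library of T cell sufficient lymphoma 1, has no column matched to it here. Whether the column of that lymphoma, the deepest of all, holds its run 1 library alone or both was not determined, and it was treated as run 1. T cell sufficient lymphoma 4 was matched to its column by number alone, since the suffixes differ. Each lymphoma is another animal by the labels' numbering, and same-numbered lymphomas of the groups are unpaired (4 of 11 correlations of their deviations were over 0.1).

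Counts were tested with edgeR 4.0.16 (R 4.3.3): filterByExpr removed 120 genes and left 11020, sizes were scaled by TMM, and the robust quasi-likelihood test had terms for run and group, with Benjamini-Hochberg adjustment over all genes. SE is the log2 coefficient over the square root of F, and 95% intervals are 1.96 SE either way. Slopes used log2 CPM (prior count 2) of Bcl6 or Prdm1 as a covariate. Correlations used log2 CPM after subtraction of the mean of each group and run, with two-sided permutation p from 100000 relabellings within groups and runs. The adjustment over 9 relations planned for them was left out, so that no p is adjusted over the factors alone; the adjusted test is the slope fit over all genes. The factors and the lists of pathway and marker genes were chosen with earlier results of these data known. List results are counts and medians with no test. Named genes are the 10 factors, Cd3e, up to 3 genes of each list with the smallest p between groups, and the genes most like each factor by residual r; list genes named beyond these were chosen after their values were seen, and some genes of the lists are not reported here by name. Gene positions are from GENCODE M21 and promoters from RefSeq, which held all 10 factors.

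Library totals ran from 7576034 to 30607005 counts. No pair of libraries of a group agreed within sampling noise (chi-square per degree of freedom at least 31.0). On simulated counts (11087 genes), 37.3%, 64.2% and 89.4% of genes changed 1.5-fold, 2-fold and 4-fold between groups were called, and for slopes on Bcl6 (11084 genes) 38.8%, 70.1% and 89.4% at slopes of 0.5, 1 and 2. Alternatives were other scalings, no filter, DESeq2 1.42.0, limma-voom (limma 3.58.1), no run term, single runs, the replicate number as a block, another prior count, and libraries left out; leaving out the libraries farthest from the median Bcl6 or Prdm1 in the slope fits, the limit of 10 CPM for Xist and Y-linked transcripts, the fit on Prdm1 and the counts of each list under the alternatives were added after seeing the data.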

Additional observations from a re-analysis of the deposited data

Results flagged for a closer look

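Among the 40 tests of the highest or lowest lymphoma in each group and run, 3 lymphomas stood farther from the others than Dixon's 95% limit, where chance gives about 1 in 20. Irf4 was lowest among the 5 deficient lymphomas of run 1 in number 8, at 161 CPM against a median of 453 CPM. Mef2b was lowest among the same 5 in number 7, at 347 CPM against a median of 576 CPM, and without that lymphoma Mef2b still passed between groups. Bcl6 was highest among the 7 sufficient lymphomas of run 1 in number 4, at 1056 CPM against a median of 473 CPM.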

How the results depend on the processing

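Other scalings, no filter, limma-voom and DESeq2 kept Mef2b past the test between groups; run 1 alone did not. Where a value below changed, the cause was not tested.

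Between groups, 2448 genes passed, but 0 in run 1 alone, 1359 in run 2 alone, 290 without the 12 libraries with Xist and Y-linked transcripts above 1 CPM and 1470 without the 3 above 10 CPM. Genes of the pathway lists numbered 45, and 0, 26, 6 and 26 in the same order, and factors 1, but 0 in run 1. Leaving out single lymphomas gave 1945 to 2783 genes, 35 to 47 list genes and 1 to 2 factors. With the replicate number as a block 1832 genes passed and Mef2b had a log2 fold change of 1.42 (edgeR adjusted p = 0.00366); the numbers do not pair the lymphomas (correlations from -0.25 to 0.23, 2 of 11 best with their own number). Small differences changed sign. Bach2 was 0.28 with no run term, 0.48 in run 2 and 0.56 without the 12 libraries (-0.55 to 0.086 without single lymphomas). Pax5 was 0.044 with no run term, 0.10 in run 1 and 0.083 without the 12 libraries (-0.11 to 0.040). Mef2c was -0.023 with no run term, -0.0085 with the replicate block and -0.37 in run 1 (-0.094 to 0.17). Irf4 was -0.023 in run 1. Prdm1 was 0.33 in run 1 and 0.35 without the 3 libraries (-1.74 to 0.080). Bcl6 was -0.010 to 0.43 without single lymphomas.

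On the Bcl6 level, 74 genes passed, but 411 by DESeq2, 182 by limma-voom, 21 with no run term, 1 with the replicate block, 0 in run 1, 12 in run 2, 0 without the 12 libraries, 1 without the 3, and 1 without the 2 farthest in Bcl6, and 0 to 117 without single lymphomas (more than 1.5 times fewer without sufficient 4, 8, 9, 11 or 12 or deficient 9, and more without deficient 6 or 7). Of the 9 factors 0 passed, 2 by DESeq2 and 0 to 1 without single lymphomas (Xbp1 without deficient 7, adjusted p = 0.0468, or deficient 11, adjusted p = 0.0451). Slopes that changed sign were Bach2 at -0.80 with the replicate block, -0.048 in run 2, -0.24 without the 12 and -0.017 without the 2 farthest (-0.016 to 0.59 without single lymphomas), Irf8 at -1.02 without the 12, -0.027 without the 3 and -0.76 without the 2 farthest (-0.077 to 0.48), Mef2b at 0.19 in run 1, 0.20 without the 3 and 0.19 without the 2 farthest (-0.22 to 0.15), Mef2c at -0.037 in run 1 and -0.092 without the 2 farthest, and Pax5 (-0.14 to 0.010) and Spib at 0.14 and 0.19 without the 2 farthest.

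On the Prdm1 level, 537 genes passed, but 1122 by DESeq2, 312 with no run term, 97 with the replicate block, 154 in run 1, 0 in run 2 (1110 at an unadjusted p under 0.05), 1 without the 12 libraries, 255 without the 3, 54 without the 2 farthest in Prdm1, and 291 (without sufficient 11) to 620 without single lymphomas. The 2 factors that passed became 0 in run 2, 0 without the 12 and 1 without the 2 farthest, and 2 to 3 without single lymphomas. Bach2 became 0.019 in run 2 and 0.035 without the 12 (-0.48 to 0.031), and Irf8 -0.0054 without the 12.

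With Bcl6, 3 correlations of 9 had a p under 0.05, but 0 in run 1, 1 without the 2 farthest, 1 by ranks and 1 without the 3 libraries. Signs changed for Bach2 (-0.089), Pax5 (0.23), Irf8 (-0.38), Mef2b (0.091) and Mef2c (-0.093) without the 2 farthest, for Irf8 (-0.094) and Mef2b (0.10) without the 3, for Mef2b in run 1 (0.22) and by ranks (0.0040), and for Pax5 by ranks (0.078). Prdm1, with as few as 30 counts in a library, is the factor measured least precisely.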

Other observations

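Marker lists of other cell types were read beside the 10 factors. Their counts are to be read against the 10.6% of all genes that were higher and the 11.7% that were lower in deficient lymphomas. Monocyte and macrophage markers passed the test upwards in 0 and downwards in 2 of 15 between groups, all 15 had a log2 fold change below 0 (median -0.97), with a summed level of 191 to 884 CPM in deficient and 260 to 3332 CPM in sufficient libraries. Dendritic cell markers passed upwards in 2 and downwards in 1 of 5 (62.4 to 331.5 CPM in deficient and 76.4 to 280.3 CPM in sufficient libraries), and stroma and endothelium markers upwards in 0 and downwards in 2 of 5 (27.8 to 164.5 CPM and 31.4 to 266 CPM). T and NK cell markers passed in 0 of 7 and neutrophil markers in 0 of 3, and 1 of 7 erythroid markers was higher in deficient libraries. Every tested marker exceeded 1 CPM in at least 7 libraries, as does every gene the authors listed. Markers that they did not list could not be read. With Mef2b, the residual r of these sums lay between -0.34 for monocytes and macrophages and 0.32 for erythroid cells.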
